A study of Mus musculus with 4 samples.

Results

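Activated microglia and phagocyte genes were examined in bulk RNA-seq of mouse prefrontal cortex (PFC) after knockdown of the histone methyltransferase gene *Ash1L*. The set holds 10 genes, *Spp1*, *Cd300lb*, *Apoe*, *Trem2*, *Cst7*, *Itgax*, *Lpl*, *Clec7a*, *Gpnmb* and *Cd68*, out of 23420 gene symbols in the count files. The genes were chosen by name, with their values in this same comparison already known, so their levels and fold changes are given as a description. Calls on them are counted beside the share of all genes called, and nothing is read from those counts. Both groups were C57BL6/J mice with AAV9 injected into the PFC. The control samples received GFP-AAV9 and the *Ash1L* shRNA samples received shRNA_ASH1L-AAV9, in which the U6 promoter drives the shRNA and is not restricted to one cell type. There were 2 samples per group, each a punch of total tissue containing GFP fluorescence and, by the methods of the study, a pool of 3 mice injected at 5 weeks of age. The mice of both groups are given as 6 to 8 weeks old. The series text names 3 knockdown and 2 GFP mice in place of pools, and the methods call the control virus a scrambled shRNA AAV.

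Microglia are the resident macrophages of the brain. When they meet amyloid, dying cells or myelin debris, they lower homeostatic genes such as *P2ry12* and *Tmem119* and raise a phagocytic and lipid-handling programme, which partly depends on the lipid receptor TREM2 and its adaptor DAP12 (encoded by *Tyrobp*). The genes described here include a secreted ligand (*Spp1*), surface receptors (*Cd300lb*, *Trem2*, *Clec7a*, *Itgax*), lipid carriers and enzymes (*Apoe*, *Lpl*) and lysosomal proteins (*Cst7*, *Gpnmb*, *Cd68*).

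Promoter letters are shown first for 5 genes that represent the contrasting patterns found. *Spp1* and *Cd300lb* were higher in both *Ash1L* shRNA samples, whereas *Trem2*, *Itgax* and *Cst7* were higher in one and lower in the other. Each run holds the 250 bases before a RefSeq transcription start (GRCm38.p6), written 5′ to 3′ on the strand of the gene, with matches to GAGGAA (the PU.1 core) and TGANTCA (AP-1) on either strand in capitals (TTCCTC is GAGGAA read on the opposite strand). PU.1 is the transcription factor that defines the macrophage lineage, and AP-1 is induced by many stimuli.

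Spp1, chr5:104434861-104435110, plus strand: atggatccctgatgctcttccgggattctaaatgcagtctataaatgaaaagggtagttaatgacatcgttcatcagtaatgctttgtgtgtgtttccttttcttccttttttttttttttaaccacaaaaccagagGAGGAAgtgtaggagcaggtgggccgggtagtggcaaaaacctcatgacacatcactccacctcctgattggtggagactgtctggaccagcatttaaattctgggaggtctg
Cd300lb, chr11:114934372-114934621, minus strand: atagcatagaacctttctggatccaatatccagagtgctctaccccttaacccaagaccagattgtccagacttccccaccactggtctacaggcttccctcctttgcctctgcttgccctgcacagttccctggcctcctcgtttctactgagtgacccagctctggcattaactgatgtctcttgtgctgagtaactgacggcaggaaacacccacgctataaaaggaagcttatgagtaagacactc
Trem2, chr17:48346151-48346400, plus strand: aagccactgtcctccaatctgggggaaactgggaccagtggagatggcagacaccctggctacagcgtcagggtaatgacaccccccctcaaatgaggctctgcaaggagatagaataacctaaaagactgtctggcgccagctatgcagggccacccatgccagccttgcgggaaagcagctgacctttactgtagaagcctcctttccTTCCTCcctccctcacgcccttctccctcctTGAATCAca
Itgax, chr7:128129300-128129549, plus strand: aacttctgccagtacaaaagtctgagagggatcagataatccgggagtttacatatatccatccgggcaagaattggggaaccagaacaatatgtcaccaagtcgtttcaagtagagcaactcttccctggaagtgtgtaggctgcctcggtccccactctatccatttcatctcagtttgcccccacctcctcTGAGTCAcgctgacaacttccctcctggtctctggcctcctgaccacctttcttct
Cst7, chr2:150570165-150570414, plus strand: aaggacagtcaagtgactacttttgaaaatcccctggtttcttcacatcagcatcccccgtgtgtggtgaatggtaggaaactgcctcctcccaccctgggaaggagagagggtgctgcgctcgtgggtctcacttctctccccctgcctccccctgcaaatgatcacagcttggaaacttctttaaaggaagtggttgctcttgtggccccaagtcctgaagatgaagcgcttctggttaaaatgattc

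Of the 10 genes, 9 had a RefSeq promoter in the table, all but *Lpl*, with 13 windows in all. GAGGAA, searched on both strands, was found in 5 genes: *Spp1* (113 bases before the start), *Trem2* (40 bases), *Cd68* (225 bases), *Clec7a* and *Apoe*. Among all 27025 genes with promoter windows, 25.9% held it. TGANTCA, which reads TGANTCA on the opposite strand too, was found in 3 genes, *Trem2* (9 bases before the start), *Itgax* (56 bases) and *Cd68* (149 and 24 bases), against 7.82% of all genes. CACGTG, the E-box read by the lysosomal regulators MITF and TFEB, was in none of the 13 windows and in 6.86% of all genes. The genes higher in both shRNA samples did not share a motif, since *Spp1* held GAGGAA alone, and *Cd300lb* and *Gpnmb* held none of the 3. A match describes letters in the window, not binding.

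Sequencing depth ran from 14251190 to 35764874 counts per sample. *Ash1l*, the targeted gene, stood at 245 and 290 CPM (counts per 1000000, scaled with TMM) in the control samples and at 216 and 138 CPM in *Ash1L* shRNA samples 1 and 2. Its log2 fold change was -0.60 (SE 0.22), with an adjusted p of 0.275 in edgeR's quasi-likelihood test. Between the *Ash1L* shRNA samples the chi-square per degree of freedom over genes was 42.3, against 14.8 between the controls, so the knockdown samples stood further apart and each was compared with the controls separately. Genes were called UP or DOWN at an unadjusted p under 0.05 with at least a 1.2-fold change, which took 8.61% and 8.28% of the 16232 genes tested. At an adjusted p under 0.05, 0% of genes were higher and 0.00616% (1 gene) lower, with 2746 genes under 0.05 before adjustment. DESeq2 placed 420 genes and edgeR's likelihood ratio test 479 genes under that adjusted limit. No source states that the pools were independent beyond the words biological duplicates, so p-values measure the spread between these samples.

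All 10 genes passed the filter on low counts and had counts in every sample. They did not move as 1 block. *Ash1L* shRNA sample 1 lay above both controls for 9 of the 10, all but *Apoe*, where 36.6% of all genes tested did so. *Ash1L* shRNA sample 2 lay above both controls for 3 genes (41.7% of all genes) and below both for 5 genes (41.7% of all genes). Only *Apoe* was below both controls in sample 1, as were 37.5% of all genes. Both shRNA samples were above both controls for *Spp1*, *Cd300lb* and *Gpnmb* (26.5% of all genes), and both were below for *Apoe* (26.8% of all genes). *Trem2*, *Cst7*, *Itgax* and *Lpl* were above both controls in sample 1 and below both in sample 2, an opposed pattern seen in 5.95% of all genes. Since the genes were selected with this contrast known, nothing is read from these shares.

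**Figure D1:**
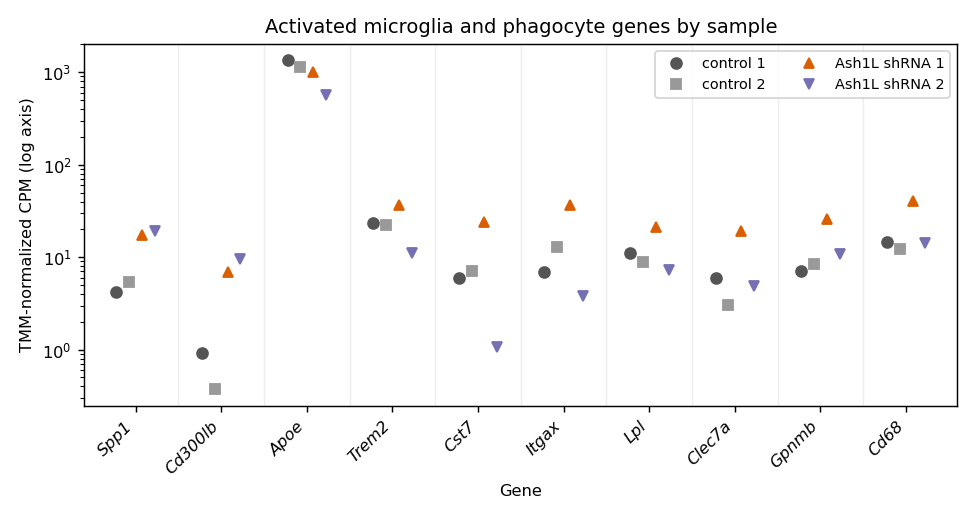
TMM-normalized CPM (log axis) of the 10 genes, 1 point per sample. *Spp1* and *Cd300lb* have both shRNA points (triangles) above both controls, *Apoe* has both below, and for *Cst7* and *Itgax* the shRNA points lie on opposite sides of the controls.

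*Spp1* encodes osteopontin, a secreted phosphoprotein that binds integrins and CD44. Its level was 4.25 and 5.33 CPM in the controls and 17.2 and 19.1 CPM in the *Ash1L* shRNA samples. The groups did not overlap, and the shRNA samples differed from each other by less than counting error (ratio 0.902, 95% Poisson interval 0.788 to 1.03). The log2 fold change was 1.90 (SE 0.20), from 4.79 ± 0.764 to 18.1 ± 1.32 CPM (SD, n = 2), or 3.78-fold between the means. The gene lies at chr5:104435118-104441050 on the plus strand (mm10, GENCODE vM21, ENSMUSG00000029304), and its exons overlap those of *Gm42793*, a symbol on the same strand that the count files do not list.

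*Cd300lb* encodes an activating receptor of the CD300 family that signals through DAP12. It had 13 raw counts in each control and 191 and 200 raw counts in *Ash1L* shRNA samples 1 and 2. On the CPM scale the levels were 0.921 and 0.371 in the controls and 6.97 and 9.65 in the shRNA samples. The groups were far apart, but the control level is imprecise, since a count of 13 has a 95% Poisson interval of 6.92 to 22.2. The log2 fold change was 3.84 (SE 0.47), and the ratio of mean CPM was 12.9. The gene is at chr11:114922781-114934386 on the minus strand (ENSMUSG00000063193).

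*Cd300lb* was the lowest of the 10 genes in the controls when levels were taken per kilobase of exon, at 0.221 ± 0.133 CPM per kb (SD, n = 2). *Apoe* was the highest at 580 ± 67.8 CPM per kb. *Cd68* followed at 10.7 ± 1.23 CPM per kb and *Cst7* at 6.60 ± 0.803 CPM per kb. Below them came *Trem2*, *Spp1*, *Itgax*, *Clec7a*, *Gpnmb* and *Lpl*, between 4.60 and 0.947 CPM per kb. Within that order *Itgax* (2.06 ± 0.871 CPM per kb) and *Clec7a* (1.71 ± 0.804 CPM per kb) lay within their spread of each other.

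*Trem2* encodes the lipid-sensing receptor of microglia. It stood at 23.4 and 22.1 CPM in the controls, 36.8 CPM in *Ash1L* shRNA sample 1 and 11.0 CPM in sample 2. The controls were close together and the shRNA samples lay on either side of them, 3.33-fold apart (95% Poisson interval 2.88 to 3.86). Its log2 fold change of 0.08 (SE 0.55) follows the group means, 22.8 CPM in the controls and 23.9 CPM in the shRNA samples. On the log2 scale, samples 1 and 2 departed from the control mean by 0.69 and -1.04. *Trem2* lies at chr17:48346401-48354147 on the plus strand (ENSMUSG00000023992).

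*Clec7a* encodes dectin-1, a receptor for fungal beta-glucan. Its level was 6.02 and 3.02 CPM in the controls, 19.2 CPM in sample 1 and 4.82 CPM in sample 2. Sample 1 was 4.24-fold above the control mean, while sample 2 lay between the controls. The log2 fold change was 1.46 (SE 0.71). The gene, at chr6:129461591-129472779 on the minus strand (ENSMUSG00000079293), carries the biotype polymorphic pseudogene in GENCODE vM21.

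*Itgax* encodes the integrin subunit CD11c. It stood at 6.94 and 12.9 CPM in the controls, 36.9 CPM in sample 1 and 3.81 CPM in sample 2. The controls already differed by 1.85-fold, and the shRNA samples differed by 9.67-fold (95% Poisson interval 7.69 to 12.3), with one above and one below the controls. The log2 fold change was 1.02 (SE 1.12). *Itgax* is at chr7:128129547-128150657 on the plus strand (ENSMUSG00000030789).

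*Cst7* encodes cystatin F, an inhibitor of lysosomal cysteine cathepsins. It had 84 and 248 raw counts in the controls, 653 in sample 1 and 22 in sample 2, or 5.95, 7.07, 23.8 and 1.06 CPM. Its shRNA samples were the furthest apart of the 10 genes, 22.5-fold (95% Poisson interval 14.7 to 36.1), with sample 1 3.66-fold above the control mean and sample 2 6.13-fold below it. A gap of this size was reached by 0.0123% of all genes tested in that direction and by 0.0308% in either direction, *Cst7* included. *Cst7* was chosen with this contrast known and has the widest gap of the 10, so nothing is read from these shares. The log2 fold change was 0.94 (SE 1.35), smaller than its standard error. It follows the group means, 6.51 CPM in the controls and 12.5 CPM in the shRNA samples. On the log2 scale, samples 1 and 2 departed from the control mean by 1.86 and -2.52, so its sign is that of sample 1 only. The gene lies at chr2:150570415-150578944 on the plus strand (ENSMUSG00000068129).

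*Cd68* and *Gpnmb*, glycoproteins of the phagocyte lysosome, were less divided. *Cd68* stood at 14.5 and 12.3 CPM in the controls, 40.1 CPM in sample 1 and 14.4 CPM in sample 2, so that sample 2 lay between the controls. The log2 fold change of *Cd68* was 1.03 (SE 0.48). *Gpnmb* stood at 7.01 and 8.35 CPM in the controls, 25.7 CPM in sample 1 and 10.8 CPM in sample 2. Both shRNA samples were above both controls for *Gpnmb*, by 3.35-fold in sample 1 and 1.41-fold in sample 2 over the control mean, with a log2 fold change of 1.24 (SE 0.41). *Cd68* is at chr11:69664213-69666153 on the minus strand (ENSMUSG00000018774) and *Gpnmb* at chr6:49036546-49070929 on the plus strand (ENSMUSG00000029816).

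*Lpl* encodes lipoprotein lipase, which releases fatty acids from lipoproteins. It stood at 11.0 and 8.87 CPM in the controls, 21.3 CPM in sample 1 and 7.29 CPM in sample 2. Sample 1 was above both controls and sample 2 a little below them, with a log2 fold change of 0.54 (SE 0.49). The gene is at chr8:68880491-68907448 on the plus strand (ENSMUSG00000015568).

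*Apoe* encodes apolipoprotein E, made in brain mainly by astrocytes and also by microglia. It stood at 1343 and 1138 CPM in the controls, 1008 CPM in sample 1 and 571 CPM in sample 2. It was the one gene of the set lower than both controls in both shRNA samples, at 0.813 and 0.460 of the control mean, with a log2 fold change of -0.65 (SE 0.27). It was not called DOWN in the quasi-likelihood test, and was called DOWN with DESeq2, with the likelihood ratio test and with either replicate block. Over the 12 astrocyte markers, 8 were DOWN and none UP, where 8.28% and 8.61% of all genes tested were. The largest falls were in *Aldoc* (log2 fold change -1.18), *Gja1* (-0.99), *Fgfr3* (-0.95) and *Slc1a3* (-0.94). *Gfap* (log2 fold change 0.00), *Aqp4* (0.11), *Sox9* (0.06) and *S100b* (-0.27) overlapped between the groups and were not called. The summed level of the 12 was 7488 and 7645 CPM in the controls and 5864 and 4055 CPM in samples 1 and 2, most of it from *Slc1a2* and *Glul*. All 12 were above 0 in every sample, and the part of astrocytes in the *Apoe* values was not tested. *Apoe* lies at chr7:19696109-19699188 on the minus strand (ENSMUSG00000002985).

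By the calls, 3 of the 10 genes (*Spp1*, *Cd300lb* and *Gpnmb*) were UP, where 8.61% of all genes tested were, 0 were DOWN, where 8.28% were, and 7 were not called. Their median log2 fold change was 1.03, against -0.00273 over all genes tested. These figures describe genes picked on the same contrast. The median departure from the control mean was 1.79 on the log2 scale in sample 1 and -0.17 in sample 2. *Ash1L* shRNA sample 1 was higher than sample 2 for 8 of the 10 genes, all but *Spp1* and *Cd300lb*, where 52.2% of all genes were. The median gap between the shRNA samples was 1.51 on the log2 scale, against 0.0169 over all genes.

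**Figure D2:**
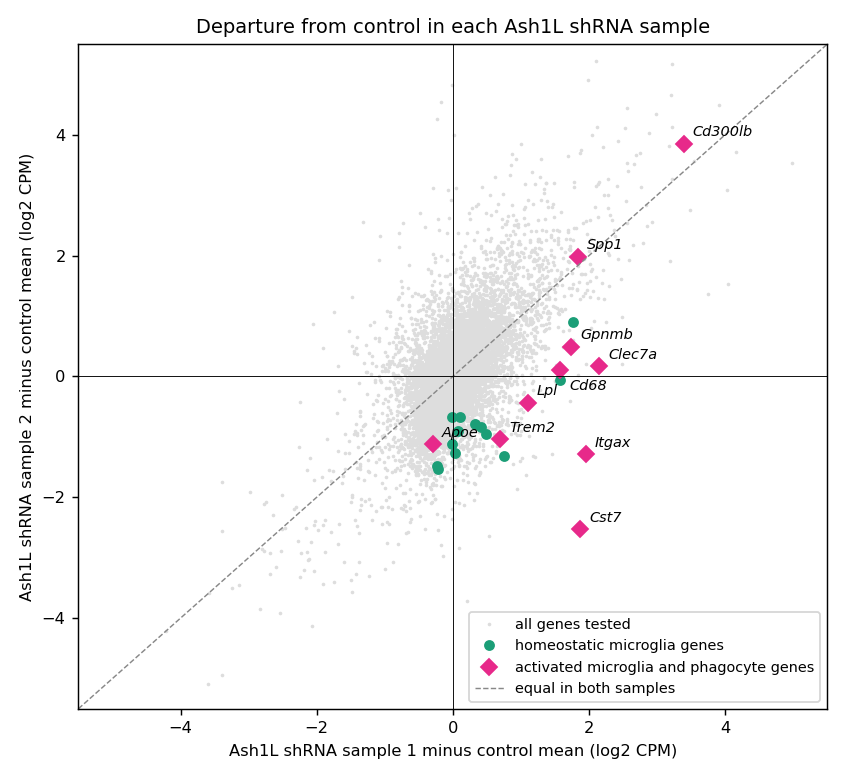
Departure of each gene from the control mean (log2 CPM) in *Ash1L* shRNA sample 1 (x axis) and sample 2 (y axis), with all genes tested in grey, homeostatic microglia genes as circles and the 10 genes as diamonds; the dashed line marks equal departure. *Spp1* and *Cd300lb* lie near the line, and the other 8 lie below it, *Cst7* furthest at 1.86 and -2.52.

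General microglia genes were split between the shRNA samples as well. The 13 homeostatic microglia markers, all present in every sample, summed to 731 and 743 CPM in the controls, 930 CPM in sample 1 and 393 CPM in sample 2. Sample 1 was above both controls for 9 of the 13 (36.6% of all genes) and sample 2 below both for 12 (41.7% of all genes). *P2ry12*, the purinergic receptor of resting microglia, stood at 52.4 and 50.9 CPM in the controls, 52.5 CPM in sample 1 and 21.5 CPM in sample 2. By the test across both groups, 1 of the 13 was UP, the secreted glycoprotein gene *Olfml3* (log2 fold change 1.32, SE 0.47, adjusted p = 0.273), and 0 were DOWN. The 11 general macrophage markers tested summed to 568 and 647 CPM in the controls, 883 CPM in sample 1 and 339 CPM in sample 2, with 0 UP and 0 DOWN. In bulk tissue, fewer microglia and less RNA per microglia cannot be told apart.

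Each gene was therefore also expressed as a percent of the summed homeostatic microglia level of its own sample. On this scale 6 genes (*Spp1*, *Cd300lb*, *Lpl*, *Clec7a*, *Gpnmb* and *Cd68*) were above both controls in both shRNA samples and 1, *Apoe*, was below in both. The divisor was 393 CPM in sample 2 against 731 and 743 CPM in the controls, so a gene at unchanged CPM rises there on this scale. By CPM, *Lpl* in sample 2 was below both controls, and *Clec7a* and *Cd68* lay between them. The share of all genes on this scale was not computed, and nothing is read from the count. *Gpnmb* was at 0.959% and 1.12% in the controls and at 2.76% and 2.75% in samples 1 and 2, so that the gap between the shRNA samples seen in CPM was gone. *Cd68* was at 1.99% and 1.66% in the controls and at 4.31% and 3.66% in the shRNA samples. *Spp1* and *Cd300lb* lay further apart between the shRNA samples on this scale than in CPM. *Spp1* reached 1.85% in sample 1 and 4.85% in sample 2, over 0.581% and 0.717% in the controls. *Cd300lb* reached 0.750% and 2.45%, over 0.126% and 0.0499%. *Cst7* stayed divided, at 2.56% in sample 1 and 0.270% in sample 2 against 0.814% and 0.951% in the controls. *Trem2* also lay on either side of the controls, less widely, at 3.96% in sample 1 and 2.81% in sample 2 against 3.21% and 2.97%. *Itgax* was at 3.97% in sample 1, above both controls, and at 0.969% in sample 2, between the controls at 0.949% and 1.73%. The count of 6 was also obtained with the general macrophage markers as the denominator. That sum was likewise lower in sample 2 (339 CPM) than in the controls (568 and 647 CPM), so it is not an independent check.

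**Figure D3:**
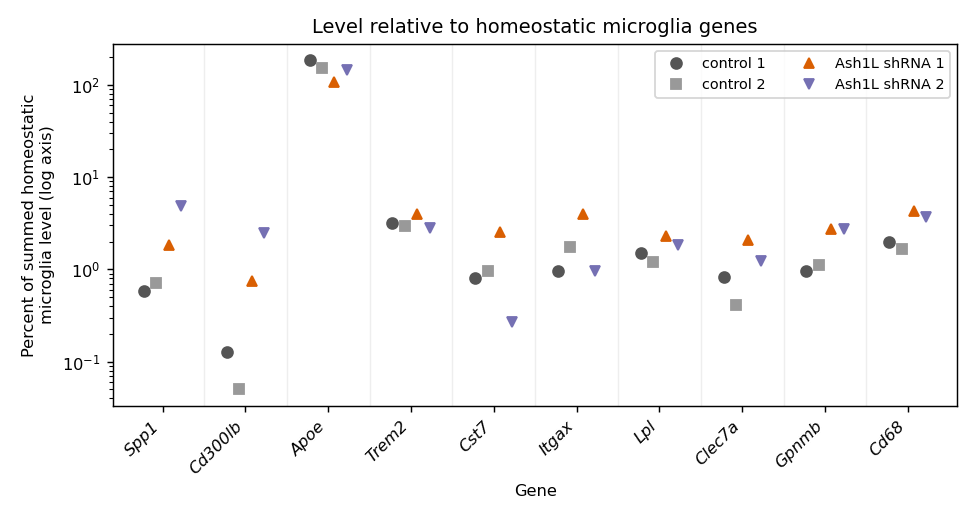
Level of each of the 10 genes as a percent of the summed level of 13 homeostatic microglia genes in the same sample (log axis), 1 point per sample. Both shRNA points lie above both controls for *Spp1*, *Cd300lb*, *Lpl*, *Clec7a*, *Gpnmb* and *Cd68*, and *Cst7* in *Ash1L* shRNA sample 2 lies below both controls. The divisor was 393 CPM in sample 2, against 731 and 743 CPM in the controls, which raises the sample 2 points.

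The nearest patterns over the 4 samples were sought for each gene among 13681 genes with a mean of at least 50 normalized counts, by Euclidean distance of log2 levels centred on the control mean. For *Trem2* they were *Dnase2a* (distance 0.10), which encodes a lysosomal nuclease, *Cd84* (0.15) and the complement gene *C1qa* (0.17). For both *Cst7* and *Itgax* the nearest were *Ly9* and *Cd72*, genes of leukocyte surface receptors, with *Ly9* at a distance of 1.49 from *Cst7* and 0.95 from *Itgax*. Next came the homeostatic microglia marker *Gpr34* for *Cst7* (1.64) and *Cd300a* for *Itgax* (1.03). These distances are long beside those of *Trem2*. *Cd68* was nearest to *Oasl1* (0.16), the homeostatic microglia marker *Fcrls* (0.25) and *Oas3* (0.31). *Gpnmb* was nearest to the CD300 receptor gene *Cd300lf* (0.17), *Plin2* (0.39) and *Amica1* (0.44). *Lpl* was nearest to *Gm960* (0.23), *Cort* (0.28) and *Ctsz* (0.30), and *Clec7a* to *Ltbp2* (0.75), *Gpr84* (0.79) and *Olfml3* (0.82). Of these, *Plin2*, *Ctsz* and *Gpr84* are in the list of other activated microglia genes and *Olfml3* is a homeostatic microglia marker. *Spp1* was nearest to *Neb* (0.05), *Dennd2c* (0.35) and *Il1a* (0.38), and *Cd300lb* to *Apol7a* (0.72), *Dgkk* (0.85) and *Cryba2* (0.93), none of which is among the microglia or macrophage markers used. *Apoe* was nearest to the somatostatin gene *Sst* (0.08), then to *Psd2* and *Rtn4r*.

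The genes that work with these 10 were then counted in 7 lists, of 109 genes of which 97 were tested. Of these, 13 were UP (13.4%) and 7 were DOWN (7.22%), where 8.61% and 8.28% of all genes tested were. The same shares of all genes stand beside the counts of each list below. In edgeR's quasi-likelihood test 0 of the 97 passed an adjusted p of 0.05 (lowest 0.234, with 20 under 0.05 before adjustment). In DESeq2 5 passed, and 5 in the likelihood ratio test. The median log2 fold change of the 97 was 0.08, against -0.00273 over all genes tested. *Ash1L* shRNA sample 1 was higher than sample 2 for 75 of the 97, where 52.2% of all genes tested were.

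Other genes of activated microglia gave most of the UP calls, with 7 UP and 1 DOWN of 23 tested and a median log2 fold change of 0.43. *Lgals3*, which encodes galectin-3, stood at 2.27 and 4.53 CPM in the controls and at 11.5 and 8.88 CPM in samples 1 and 2 (log2 fold change 1.54, SE 0.36). *Il1rn*, the interleukin-1 receptor antagonist gene, stood at 0.496 and 0.485 CPM in the controls and at 1.72 and 1.16 CPM in the shRNA samples (1.55, SE 0.48). The lipid droplet gene *Plin2* (0.99, SE 0.29), the macrophage metalloelastase gene *Mmp12* (2.23, SE 0.81) and the ferritin heavy chain gene *Fth1* (0.45, SE 0.16) were also UP on the log2 scale. All 5 were above both controls in both shRNA samples, but *Mmp12* stayed under 1 CPM in every sample. The transcription factor gene *Bhlhe40* was DOWN (-0.38, SE 0.13). Adjusted p for these 6 genes lay between 0.253 and 0.266 in edgeR's quasi-likelihood test.

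The signalling genes below TREM2, CD300LB and dectin-1 were 1 UP and 2 DOWN of 14 tested, with a median log2 fold change of -0.01. *Tyrobp*, the adaptor of TREM2 and CD300LB, had the split of *Trem2*, at 31.2 and 35.1 CPM in the controls, 66.4 CPM in sample 1 and 17.7 CPM in sample 2 (log2 fold change 0.35, SE 0.62). *Blnk*, a linker protein of SYK signalling, was UP and not split, at 17.4 and 16.2 CPM in the controls and 32.8 and 45.7 CPM in the shRNA samples (1.22, SE 0.19, edgeR adjusted p = 0.234). The kinase gene *Syk* (-0.62, SE 0.24) and *Malt1* (-0.54, SE 0.22), a protease downstream of dectin-1, were DOWN. Among the other CD300 receptors 3 of 9 were tested and none was called. *Cd300lf* was above both controls in both shRNA samples, at 4.24 and 1.88 CPM over 1.13 and 1.54 CPM, and *Cd300a* was at 8.73 CPM in sample 1 and 1.98 CPM in sample 2 around controls of 3.75 and 4.25 CPM. *Cd300lg* was above both controls in both shRNA samples as well, at 0.438 and 0.579 CPM over 0.283 and 0.228 CPM.

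Receptors of osteopontin went both ways, with 2 UP and 1 DOWN of 9 tested and a median log2 fold change of 0.13. The integrin genes *Itgav* (log2 fold change 0.61, SE 0.20) and *Itga5* (1.16, SE 0.37) were UP. *Itga4*, an integrin subunit of leukocytes, was DOWN, from 34.6 and 35.3 CPM in the controls to 16.3 and 18.8 CPM in the shRNA samples (-0.99, SE 0.14, edgeR adjusted p = 0.234). Of the beta2 integrin genes around *Itgax*, 0 were UP and 1 was DOWN of 5 tested, with a median of -0.21. The called gene was *Itgal* (-1.33, SE 0.36), the alpha subunit of LFA-1. *Itgb2*, the beta subunit with which CD11c pairs, was at 19.4 and 29.7 CPM in the controls, 25.9 CPM in sample 1 and 12.4 CPM in sample 2, so that it was not above both controls in sample 1 as *Itgax* was.

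Lipoprotein and cholesterol genes around *Apoe* and *Lpl* were 2 UP and 1 DOWN of 21 tested, with a median log2 fold change of -0.11. *Lipa*, the lysosomal acid lipase gene, was UP with little spread, from 33.1 and 29.4 CPM in the controls to 44.2 and 45.6 CPM in the shRNA samples (log2 fold change 0.53, SE 0.13, edgeR adjusted p = 0.253). The apolipoprotein E receptor gene *Vldlr* was UP (0.45, SE 0.12) and the lipid synthesis regulator *Srebf1* was DOWN (-0.85, SE 0.19). Lysosome genes were 1 UP (*Lamp2*, 0.45, SE 0.11) and 1 DOWN (*Gaa*, -0.55, SE 0.15) of 22 tested, with a median of 0.08. *Ctsd*, the cathepsin D gene, was split as *Cst7* was, at 638 and 726 CPM in the controls, 1310 CPM in sample 1 and 426 CPM in sample 2. Of the 22 lysosome genes, 10 had this opposed order, sample 1 above and sample 2 below both controls, where 5.95% of all genes tested did. The same order was seen in 8 of the 13 homeostatic microglia markers and 9 of the 11 general macrophage markers.

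Markers of other cell types moved beside these values. Their calls stand beside shares of 8.61% UP and 8.28% DOWN over all genes tested. Monocyte markers were 0 UP and 3 DOWN of 9, among them *Ccr2* (log2 fold change -1.67, SE 0.40), the chemokine receptor of infiltrating monocytes, and *Ly6c2* (-3.45, SE 0.40). Their summed level was 225 and 266 CPM in the controls, 188 CPM in sample 1 and 406 CPM in sample 2, where *Nr4a1*, an activity-induced gene also used by neurons, made up 244 CPM. Dendritic cell markers were 3 DOWN of 9 tested, summing to 209 and 409 CPM in the controls and 101 and 68.9 CPM in the shRNA samples. T and NK cell markers were 5 DOWN of 8 tested, summing to 12.4 and 25.7 CPM in the controls and 6.97 and 4.92 CPM in the shRNA samples. Perivascular and meningeal macrophage markers were 1 UP and 1 DOWN of 8 tested, summing to 55.5 and 66.1 CPM in the controls and 68.6 and 54.1 CPM in samples 1 and 2. Of the neutrophil markers, only *Csf3r* passed the filter (14.9, 17.3, 19.5 and 6.56 CPM), and *Camp*, *Mmp8* and *Cxcr2* were at 0 in at least 1 sample. Oligodendrocyte precursor markers were 3 UP and 0 DOWN of 8, oligodendrocyte markers 0 UP and 1 DOWN of 9, leptomeningeal fibroblast markers 2 UP and 2 DOWN of 10, and neither the 8 endothelial nor the 8 proliferation genes gave a call. Neuron markers, which check the tissue, were present throughout, with 2 DOWN of 10 and a sum of 8236 and 8992 CPM in the controls and 7469 and 6011 CPM in the shRNA samples. The part of any of these cell types in the values of the 10 genes was not tested.

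**Figure D4:**
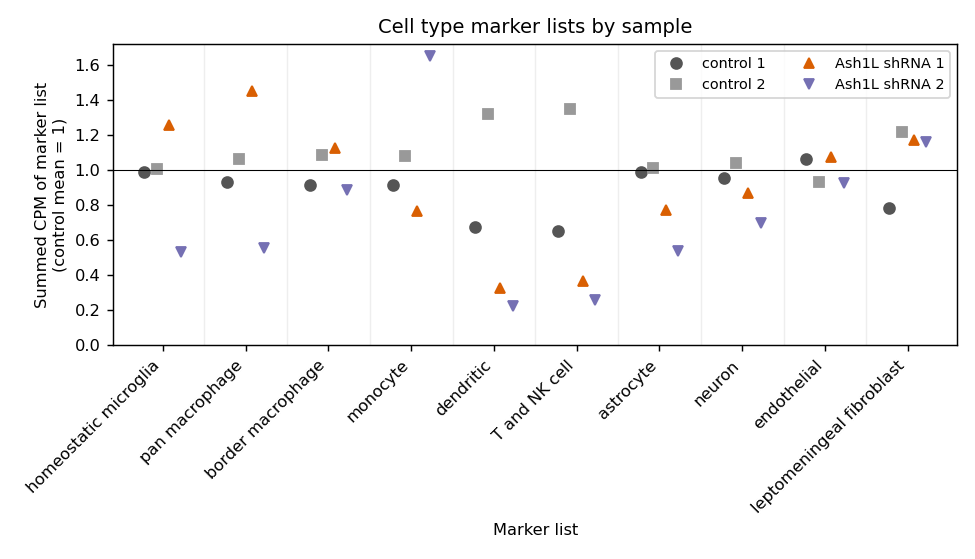
Summed CPM of 10 cell type marker lists in each sample, relative to the control mean (set to 1). Homeostatic microglia and general macrophage markers are above the controls in *Ash1L* shRNA sample 1 (1.26 and 1.45) and below in sample 2 (0.533 and 0.558), while astrocyte, dendritic and T and NK cell markers are below the controls in both. Most of the dendritic sum is *Cd74* and *H2-Aa*, and most of the astrocyte sum is *Slc1a2* and *Glul*.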

How the data were processed

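RNA-seq libraries (stranded, ribosomal RNA depleted) came from 2 control and 2 *Ash1L* shRNA PFC samples. The authors deposited raw counts per gene symbol from featureCounts (mm10, reads aligned with STAR per the file headers). The label text names TopHat2 instead. Strand and multiple-mapping settings are not given in the sources used here, so overlapping genes may share reads. No columns were left out of use (0).

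Counts were filtered with filterByExpr, scaled by TMM and fitted across 16232 genes with edgeR 4.0.16 (R 4.3.3), quasi-likelihood test, Benjamini-Hochberg adjustment. The fit was tested on simulated data. CPM are TMM-scaled. Departures from the control mean used log2 CPM with a prior count of 2. Exact permutation of 2 against 2 samples cannot give a p below 0.333. Poisson intervals (95%) cover counting error only.

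The 10 genes and all lists were chosen with earlier results of these data known. Genes named are the 10, *Ash1l*, up to 4 most abundant and 4 most changed called genes of each list, and the 3 nearest patterns per gene. Individual genes singled out beyond that rule (*Camp*, *Mmp8*, *Cxcr2*, *Gfap*, *Aqp4*, *Sox9*, *S100b*) were chosen after their values were seen. The alternatives were DESeq2 1.42.0, the likelihood ratio test, other scaling and filters, a 1.5-fold limit, the replicate block and leaving out each sample. Coordinates and exon lengths came from GENCODE vM21, promoters from RefSeq (GRCm38.p6), figures from matplotlib 3.10.9. One result under this rule is not reported here.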

Additional observations from a re-analysis of the deposited data

How the results depend on the processing

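Most of these values rest on 1 library. Without *Ash1L* shRNA sample 2, 9 were UP (all but *Apoe*). Without sample 1, 2 were UP (*Spp1* and *Cd300lb*) and 4 DOWN (*Apoe*, *Trem2*, *Cst7* and *Itgax*), and their median log2 fold change turned from 1.03 to -0.16. Leaving out each sample gave 2 to 9 genes UP and medians of -0.16 to 1.78. *Spp1* and *Cd300lb* kept their UP call in every alternative run, with log2 fold changes of 1.78 to 2.09 and 3.16 to 4.48 when each sample was left out. *Trem2* turned to -1.04, *Cst7* to -2.62, *Itgax* to -1.41 and *Lpl* to -0.43 without sample 1. *Gpnmb* was at 0.48 without sample 1, and at 1.14 and 1.38 without controls 1 and 2.

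With the likelihood ratio test 5 genes of the set were UP, as with the replicate block (adding *Clec7a* and *Cd68*), and 4 with DESeq2. *Apoe* was DOWN in these 3 and with the crossed block. The block by replicate number gave a median of 0.60, with *Trem2* at -0.16 and *Cst7* at -0.12. The crossed block, added after seeing the data, gave 0.70, 3 UP and *Trem2* at -0.12. The same-numbered deviations correlated at -0.11 across genes, and no source pairs the samples.

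Over all genes, 1397 UP became 435 to 2311 and 1344 DOWN became 278 to 2675 when each sample was left out. The 1.5-fold limit gave 765 and 491. Of the 97 partner genes, 13 UP became 4 to 28 and 8 at the 1.5-fold limit, and 7 DOWN became 2 to 33 and 4. These partner counts under the alternatives were added after seeing the data. Genes at an adjusted p under 0.05 numbered 1 in the quasi-likelihood test, 0 with the block, 16 with the crossed block, 34 without the filter, 420 with DESeq2, 479 with the likelihood ratio test, 10 without *Ash1L* shRNA sample 2 and 2356 without sample 1. The crossed block called 3292 genes before adjustment. Where a sample was left out, the lone sample was assumed to vary like the other group. The cause of these differences was not tested. Depth limits *Cd300lb* in the controls, with 13 counts each.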
